A study of Mus musculus with 8 samples.

Results

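Fgf21 and Gdf15, hormones that the liver releases when its mitochondria fail, were examined together with Klb and Fgfr4, the co-receptor and receptor through which hepatocytes sense hormones of the FGF family. These 4 genes were fixed by name and looked for among the 22180 genes of the array that had a symbol of their own. Gdf15 was not analysed here, which left 3 of the 4, each read by 1 probe set. The samples were livers of 8 mice of strain C57BL/6N aged 27 days, which the series title calls adult, with 1 array per liver. The 4 knockout mice had the genotype Albumin-Cretg/wt:Sco1fl/fl, in which an albumin-driven Cre deletes Sco1, a copper chaperone of cytochrome c oxidase assembly, in hepatocytes and leaves the other liver cells with the gene. Of the 4 wild-type mice, numbers 1 and 3 were labelled Albumin-Cretg/wt:Sco1fl/wt and numbers 2 and 4 Albumin-Crewt/wt:Sco1fl/fl, although their titles call all 4 Sco1fl/fl. Every mouse of either group thus carried at least 1 floxed allele. The comparison asks whether this endocrine axis differed in livers of the knockout genotype.

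FGF21 is an endocrine member of the fibroblast growth factor family, made mainly by hepatocytes, whose gene is switched on by PPARA in fasting and by ATF4 in the integrated stress response, the shared answer of cells to amino acid shortage, unfolded protein and failing mitochondria. It acts on cells that carry an FGF receptor together with beta-klotho, the product of Klb. Hepatocytes pair beta-klotho mostly with FGFR4, the receptor of the gut hormone FGF15, which lowers bile acid synthesis through Cyp7a1. GDF15, of the TGF-beta family, signals through GFRAL and RET in the hindbrain.

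Array medians lay between 5.79 and 5.89 log2 units, and arrays of a group correlated at 0.9915 to 0.9954. Sco1 averaged 7.59 ± 0.10 in knockout and 8.00 ± 0.15 in wild-type livers (SD, n = 4 each), without overlap (exact permutation test, two-sided p = 0.0286; limma with Benjamini-Hochberg adjustment, adjusted p = 0.0633). The mean level of 10 hepatocyte markers spanned 13.02 to 13.07 in knockout and 13.04 to 13.05 in wild-type arrays. Some arrays stood apart. The mean of 3 Y-linked genes was 7.36 in knockout mouse 4 and 8.60 to 8.86 in the other 7 mice, while Xist lay between 4.59 and 5.06 in all 8. The clock gene Dbp stood at 9.66 and 9.86 in the mice numbered 1 and at 6.87 to 7.33 in the other 6. At an adjusted p under 0.05, 96 of the 22180 genes rose and 159 fell, 1.15% in all, against 60 and 230 once arrays were centred on their medians. An unadjusted p under 0.05 was reached by 16.7% of genes, and by Fgf21 and Fgfr4 among the 3 members. The groups did not overlap for 10.7% of genes, with the knockout higher for 5.26% and lower for 5.49%.

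Fgf21 (probe set 17490899; chr7:45613890-45615490 in GRCm38.p6) was measured at 6.23, 6.00, 6.13 and 6.65 log2 units in knockout mice 1 to 4 and at 5.70, 5.68, 5.74 and 5.78 in wild-type mice 1 to 4. All 4 knockout values lay above all 4 wild-type values, the groups were 0.22 apart at their nearest, and the knockout mice spread more widely. The means were 6.25 ± 0.28 and 5.73 ± 0.05 (SD, n = 4 each), a difference of 0.53 ± 0.12 (SE; 95% interval 0.26 to 0.80) or 1.44-fold. The exact permutation test gave two-sided p = 0.0286, the smallest that 4 arrays against 4 allow over 70 assignments. Over all genes Fgf21 ranked 437th by p and missed the threshold (adjusted p = 0.0672 by limma after Benjamini-Hochberg adjustment, with a range of 0.0415 to 0.327 in 21 other settings). The low end of that range came from a brightness filter that Fgf21 met through its knockout arrays alone, so that value supports nothing. The difference was 0.53 against the controls with Cre and 0.52 against the Cre-free controls, whose own means were 5.72 and 5.73.

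Knockout mouse 4, the mouse with the low Y-linked level, had the highest Fgf21 value. Without it the difference was 0.39 ± 0.08 (adjusted p = 0.0638, limma), and with the Y-linked level as a covariate 0.38 ± 0.09 (adjusted p = 0.0881). In wild-type livers all 4 values lay below the median of the whole table, 5.83, and in knockout livers all 4 lay above it. RMA values this low sit close to the array's background, where a difference is compressed, so the fold is one of array signal and not of transcript number. In RNA of whole liver, more cells that express a gene and more RNA per cell cannot be told apart.

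**Figure D1:**
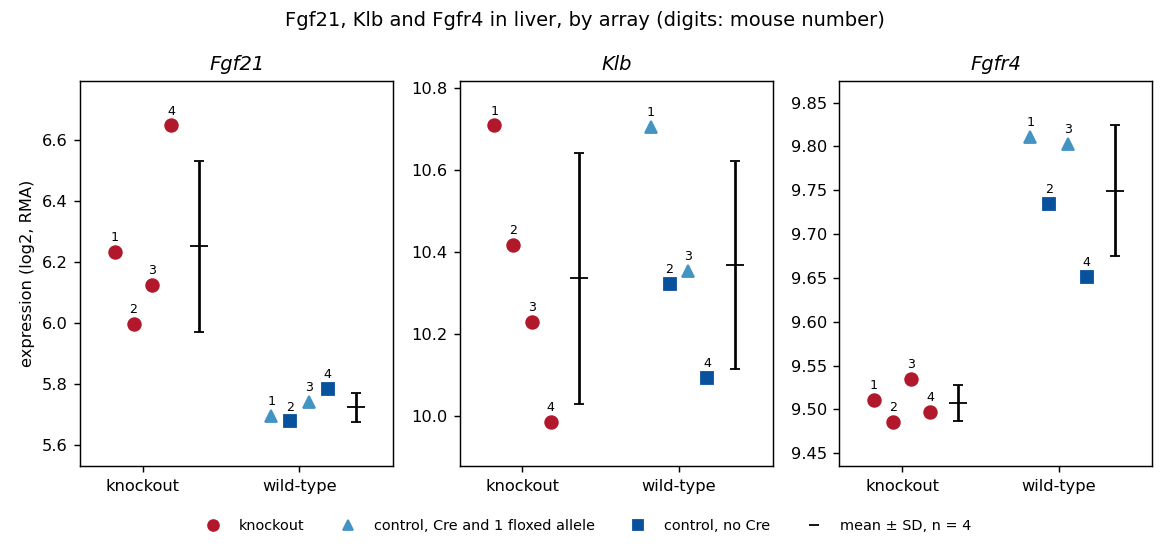
Expression of Fgf21, Klb and Fgfr4 on each array (y axes, log2 RMA values, each panel on its own scale that does not start at 0), by group, with the mouse number beside each point, the control class as marker shape and the mean ± SD of 4 mice as a bar. Knockout and wild-type values do not overlap for Fgf21, with the knockout higher, and for Fgfr4, with the knockout lower, and they overlap for Klb.

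The stretch before the Fgf21 start is shown because it holds the letters that ATF4 and its C/EBP partners are known to bind. In the RefSeq promoter table of build GRCm38.p6, Fgf21 lies on chromosome 7 on the minus strand, and the 250 bases before its start are chr7:45615491-45615740. Capitals mark a match to TGATGNAA, the core of the C/EBP-ATF response element, searched on both strands, and a match to the E-box CACGTG, a palindrome that carbohydrate response and clock factors bind. The same stretch of Nupr1, chr7:126625471-126625720 on the minus strand, follows, since Nupr1 had the largest difference among the stress targets listed.
Fgf21: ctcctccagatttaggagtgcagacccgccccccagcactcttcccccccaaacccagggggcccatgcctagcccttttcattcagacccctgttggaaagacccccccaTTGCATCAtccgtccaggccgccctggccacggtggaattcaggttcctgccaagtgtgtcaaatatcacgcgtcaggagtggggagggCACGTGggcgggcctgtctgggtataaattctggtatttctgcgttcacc
Nupr1: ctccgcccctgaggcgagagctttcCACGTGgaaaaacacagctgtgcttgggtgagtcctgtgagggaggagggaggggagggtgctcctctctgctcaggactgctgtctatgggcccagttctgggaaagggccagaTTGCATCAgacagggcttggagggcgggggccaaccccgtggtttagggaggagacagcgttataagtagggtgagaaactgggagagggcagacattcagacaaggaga
Both promoters held both motifs. TGATGNAA lay on the other strand, 139 to 132 bases before the Fgf21 start and 110 to 103 bases before the Nupr1 start. CACGTG lay 50 to 45 bases before the Fgf21 start and 225 to 220 before that of Nupr1. Of 27025 genes with a promoter in the table, 3.91% held TGATGNAA and 6.86% held CACGTG within 250 bases. The promoters of Klb and Fgfr4 held neither. The exact consensus of DR1, the direct repeat that PPARA binds, was in none of the 3 windows and in 0.0407% of the 27025 genes. A match is a description of letters, not of a bound site.

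Among the targets of the integrated stress response, 30 measured of 32 listed with Fgf21 among them, 4 rose, none fell and 26 missed the threshold, beside 0.433% of all genes that rose. The 4 were the stress-induced chromatin protein gene Nupr1, the serine synthesis genes Psat1 and Phgdh, and asparagine synthetase, Asns. In 10 of the 30, Fgf21 included, every knockout value lay above every wild-type value, against 5.26% of all genes, and the list's median difference was 0.17 beside 0.03 over all genes. Without knockout mouse 4 the list had 3 rises (Psat1, Phgdh and Nupr1), and without both mice numbered 1 it had 1 (Nupr1).

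Nupr1 was measured at 9.38, 8.52, 9.03 and 9.95 in knockout mice 1 to 4 and between 6.63 and 6.92 in wild-type mice. Its lowest knockout value was thus far above its highest wild-type value, and it rose by 2.41 ± 0.24 (SE; limma with Benjamini-Hochberg adjustment, adjusted p = 0.00226, and under the threshold with any 1 array left out). Psat1 stood at 7.09, 6.71, 6.97 and 7.48 in knockout mice and at 6.19, 6.40, 6.26 and 6.30 in wild-type mice, and rose by 0.77 ± 0.14. Its highest and lowest knockout values came from mice 4 and 2, the same as for Fgf21 and Nupr1. Asns rose by 0.67 ± 0.13 and Phgdh by 0.41 ± 0.09. Leaving out each array kept the differences at 0.64 to 0.89 for Psat1, 0.38 to 0.46 for Phgdh and 0.53 to 0.74 for Asns. With those fewer arrays Psat1 passed without knockout mouse 2 or 4 and failed otherwise (adjusted p up to 0.0845), Phgdh passed only without knockout mouse 4 (up to 0.133), and Asns failed every time (0.0578 to 0.112).

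The transcription factors of the response were less even. Ddit3, which encodes CHOP, stood at 8.03, 7.65, 8.16 and 9.05 in knockout and 7.38, 7.67, 7.18 and 7.39 in wild-type mice, so that knockout mouse 2 lay just under the highest control. Its difference was 0.82 ± 0.24 (adjusted p = 0.131). Atf3 stood at 7.49, 7.31, 7.22 and 8.30 against 6.86 to 7.09, a difference of 0.60 ± 0.20 (adjusted p = 0.17) with mouse 4 again highest. Trib3, a pseudokinase induced by CHOP, differed by 0.76 ± 0.19 (adjusted p = 0.081), and without wild-type mouse 1 it passed at adjusted p = 0.0279. Atf4 itself differed by 0.08 ± 0.08 and Atf5 by 0.19 ± 0.17, both with overlapping groups. ATF4 is controlled largely at translation, which an array does not read.

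**Figure D2:**
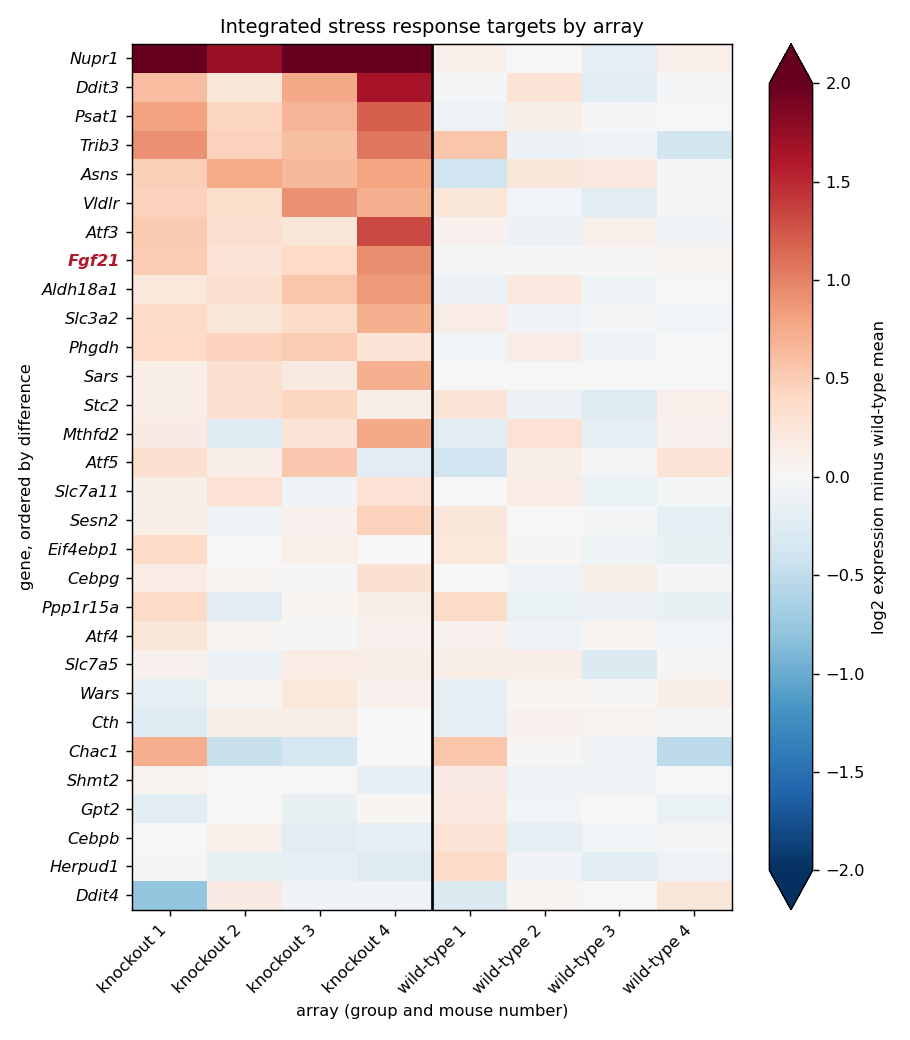
Log2 expression minus the wild-type mean (colour, limited to -2 to 2, so that the Nupr1 values of knockout mice 1, 3 and 4 run past the scale) for the 30 measured targets of the integrated stress response (rows, ordered by difference) on the 8 arrays (columns). Fgf21, in red letters, is the eighth row, and its darkest cell, like those of Ddit3, Psat1 and Atf3, is knockout mouse 4.

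TGATGNAA matches were set beside the measured differences for the listed stress targets. Of 26 such genes with a promoter in the table, 8 held the motif within 250 bases. That is 30.8%, beside 3.91% of all genes with a promoter in the table and 3.40% of those on the array. The genes were listed as known targets of the response in which ATF4 acts. A high share of its element can follow from that choice and supports nothing. The matches, with 10 bases on each side and in the direction of each gene, were as follows, the motif in capitals.
Fgf21: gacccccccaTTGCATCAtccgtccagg
Nupr1: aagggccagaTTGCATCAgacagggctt
Asns: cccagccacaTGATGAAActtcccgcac
Vldlr: gcagcaatagTTGCATCAgcgctcctag
Atf3: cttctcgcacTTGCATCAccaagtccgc
Chac1: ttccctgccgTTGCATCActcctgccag
Herpud1: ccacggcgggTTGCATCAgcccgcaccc
Slc7a11, first match: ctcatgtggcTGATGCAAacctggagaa
Slc7a11, second match: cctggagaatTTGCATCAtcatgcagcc
Inhbe: atcctctttcTTGCATCAtgcatgtcca
Of the 8 listed genes, 2 rose (Nupr1 and Asns) and 5 had groups that did not overlap, with the knockout higher, beside 0.433% and 5.26% of all genes. The lipoprotein receptor gene Vldlr stood at 0.61 ± 0.14 (adjusted p = 0.0565, limma). The other 3 overlapped: the glutathione-degrading enzyme gene Chac1 at -0.01 ± 0.26, the cystine transporter gene Slc7a11 at 0.16 ± 0.10, and the endoplasmic reticulum protein gene Herpud1 at -0.15 ± 0.12. Of the 18 genes without a match in the window, 2 rose (Psat1 and Phgdh) and 5 had higher, non-overlapping groups, with a median difference of 0.21 beside 0.56 for those with a match. The 8 with a match include Fgf21 itself, which enters their median and their count of groups without overlap. That split was made after the values were seen and was not tested. Inhbe, shown last and also chosen after its values were seen, carries the same 8 letters as Fgf21. It encodes the activin E subunit, another hepatocyte hormone, and its values were 8.51, 8.91, 9.39 and 9.20 in knockout and 10.10, 9.48, 9.93 and 10.01 in wild-type mice. All knockout values lay below all wild-type values, the opposite of Fgf21, with a difference of -0.88 ± 0.19 that just missed the threshold (adjusted p = 0.052, and under it without knockout mouse 3 or wild-type mouse 2, lowest 0.0474).

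Ppara, the gene of the fasting regulator of Fgf21, had values that overlapped between groups, at 10.29 to 10.35 in knockout and 10.08 to 10.76 in wild-type livers, a difference of -0.05 ± 0.13. Creb3l3, a liver transcription factor that works with PPARA on Fgf21, stood at 10.95, 10.97, 11.08 and 11.13 in knockout and 11.33 to 11.42 in wild-type mice. The groups were well separated with the knockout lower, by -0.34 ± 0.07 (limma, adjusted p = 0.0535). Pparg, an adipocyte regulator, stood at 0.61 ± 0.17 with overlap (adjusted p = 0.11), and without wild-type mouse 1 it passed at adjusted p = 0.0279. Of 22 measured regulators of the mitokine genes none passed in either direction, and 3 had groups without overlap, a share near the 10.7% of all genes.

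PPARA targets of fasting went both ways. Of 16 measured, 2 rose, none fell and 14 missed the threshold, and the groups were apart for 4 with the knockout higher, Fgf21 among them, and for 4 with the knockout lower. Over all genes 0.433% rose, and the groups were apart for 5.26% with the knockout higher and 5.49% with it lower. The list's median was -0.09. Cd36, a fatty acid importer, rose by 0.53 ± 0.11 and the omega-hydroxylase gene Cyp4a14 by 0.45 ± 0.09 (SE; limma, adjusted p of 0.0425 and 0.0497). With 1 array left out, the Cd36 call was kept only without wild-type mouse 1 (adjusted p up to 0.119) and the Cyp4a14 call only without knockout mouse 4 (up to 0.132).

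Fgfr4, the hepatocyte FGF receptor (probe set 17287590; chr13:55152818-55168759 in GRCm38.p6), was measured at 9.51, 9.49, 9.53 and 9.50 in knockout mice 1 to 4 and at 9.81, 9.73, 9.80 and 9.65 in wild-type mice 1 to 4. The knockout values were nearly equal and all lay below the lowest control, with a gap of 0.12. The means were 9.51 ± 0.02 and 9.75 ± 0.07 (SD, n = 4 each), a difference of -0.24 ± 0.07 (SE; 95% interval -0.40 to -0.09) that put the knockout at 84.5% of wild-type. The exact permutation p was again the smallest possible, 0.0286, and over all genes the difference missed the threshold (adjusted p = 0.129 by limma after Benjamini-Hochberg adjustment, with a range of 0.0663 to 0.483 in 22 other settings). Leaving out knockout mouse 4 gave -0.24 ± 0.08 and leaving out both mice numbered 1 gave -0.22 ± 0.08.

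The 3 classes of mice had Fgfr4 means of 9.51 in knockouts, 9.69 in Cre-free controls and 9.81 in controls with Cre and 1 floxed allele. Neither step of that order was past the threshold over all genes: knockout minus Cre-free was -0.19 (95% interval -0.38 to 0.01) and the control classes differed by 0.11 (-0.11 to 0.34). The step from knockout to the controls with Cre was -0.30 (-0.49 to -0.10; adjusted p = 0.239). No gene passed between the control classes in limma after adjustment over all genes, with 2 arrays in each.

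Klb, which encodes beta-klotho (probe set 17437765; chr5:65348411-65386957 in GRCm38.p6), was measured at 10.71, 10.42, 10.23 and 9.99 in knockout mice 1 to 4 and at 10.71, 10.32, 10.35 and 10.09 in wild-type mice 1 to 4. The groups covered the same range. The means were 10.34 ± 0.31 and 10.37 ± 0.25 (SD, n = 4 each) and the difference -0.03 ± 0.16 (SE; 95% interval -0.39 to 0.32; limma, adjusted p = 0.94). The interval leaves room for differences of that size in either direction, and the sign turned in 5 of 22 alternative settings. Class means ran from 10.21 in Cre-free controls over 10.34 in knockouts to 10.53 in controls with Cre, and no neighbours in that order differed beyond their spread.

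The spread of Klb lay within the groups. In both groups the mouse numbered 1 had the highest value and the mouse numbered 4 the lowest, and the mice numbered 1 were also those with the high clock output. Dbp and Nr1d1, chosen here after their values were seen, stood at 9.66 and 11.32 in knockout mouse 1 and at 9.86 and 11.36 in wild-type mouse 1. Their highest values elsewhere were 7.33 and 9.77. The clock genes did not set mouse 4 apart in the same way in both groups, Nr1d1 being 9.77 in knockout mouse 4 and 8.16 in wild-type mouse 4. Without both mice numbered 1 the Klb difference was -0.05 ± 0.13. The part of collection time in the Klb values was not tested, since no label gives it.

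**Figure D3:**
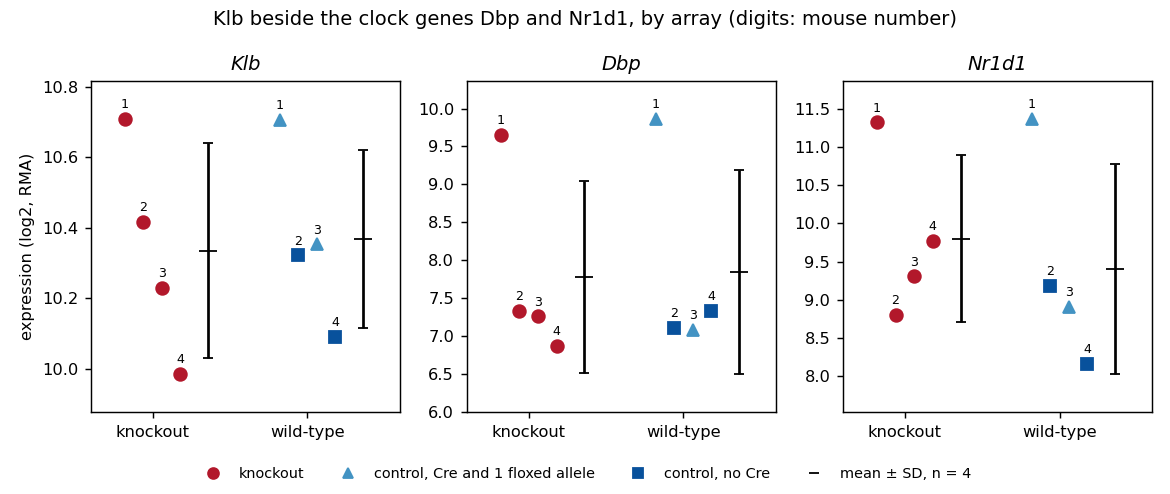
Expression of Klb and of the clock genes Dbp and Nr1d1 on each array (y axes, log2 RMA values, scales that do not start at 0), with the mouse number beside each point and the mean ± SD of 4 mice as a bar. In every panel the mouse numbered 1 is the highest of its group, and group means of Klb differ by 0.03.

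Among the 22 FGF ligands, all measured, none passed, and 18 had differences above 0 beside 57.2% of all genes (15 when arrays were centred on the median, 16 after renewed quantile normalization). Their median was 0.11. Fgf21 had the highest difference of the family, and the groups were apart for 2 ligands, Fgf21 and Fgf7, the latter at 0.14 ± 0.07 (limma, adjusted p = 0.353). That count is no more than the 10.7% of all genes without overlap. Fgf15, the ligand made by the ileum, stood near background at 5.73 to 5.90 in knockout and 5.54 to 5.81 in wild-type livers. Fgf1, an autocrine growth factor, stood the other way at -0.32 ± 0.10 (limma, adjusted p = 0.164), with the values 9.59 to 10.04 against 10.02 to 10.29.

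Of the 7 FGF receptors and co-receptors none passed, and Fgfr4 was the single one whose groups did not overlap. That count is near the 10.7% of all genes without overlap. Fgfr2 stood at -0.30 ± 0.12 and Fgfr3 at -0.26 ± 0.12, both on the negative side with Fgfr4 and both overlapping, while Fgfr1 stood at 0.01 ± 0.08. Fgfrl1, a receptor without a kinase domain, had the highest difference of the 7, at 0.30 ± 0.19 with overlap (adjusted p = 0.464). Kl, the kidney co-receptor alpha-klotho, was dim, at 5.40 to 5.58 against 5.10 to 5.41, a difference of 0.27 ± 0.09 (adjusted p = 0.167). The receptor of GDF15 was read as well. Gfral lay at 4.21 to 4.31 in knockout and 4.26 to 4.36 in wild-type livers, among the dimmest values here, and its co-receptor Ret at 6.53 to 6.75 against 6.30 to 6.50, without overlap (0.27 ± 0.08, adjusted p = 0.142). The protease gene Fap differed by 0.09 ± 0.11.

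**Figure D4:**
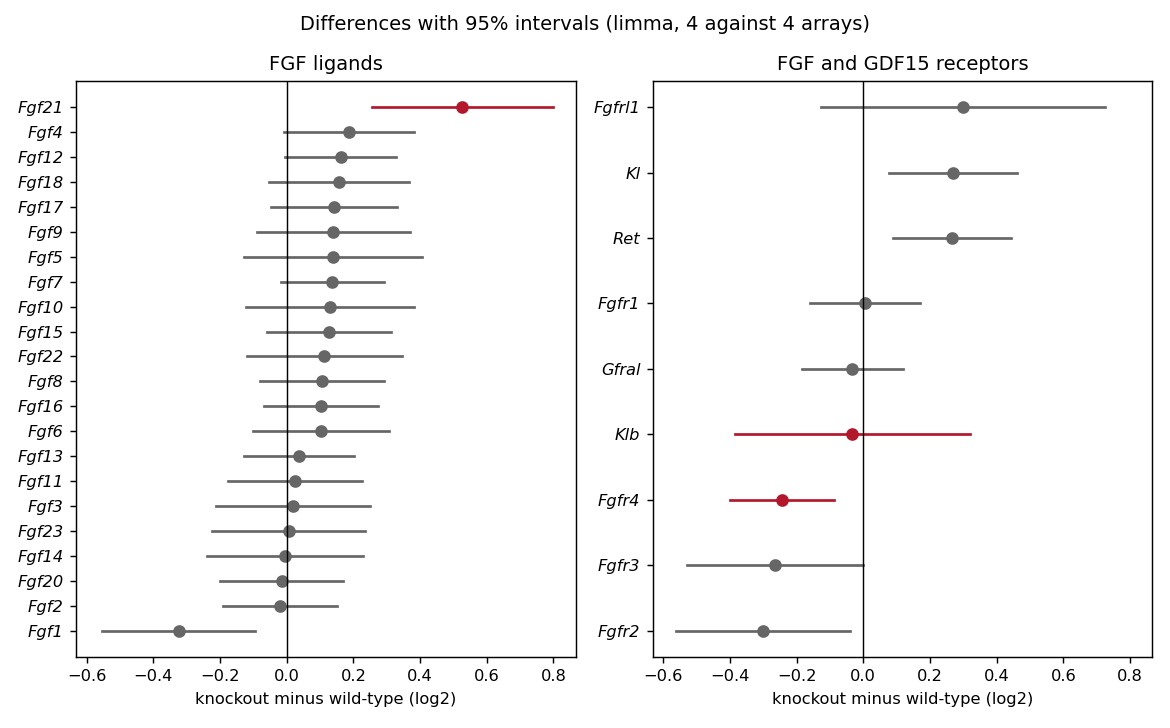
Knockout minus wild-type difference (x axis, log2) with its 95% interval from limma, 4 against 4 arrays, for the 22 FGF ligands and for the receptors and co-receptors of FGF and GDF15; Fgf21, Klb and Fgfr4 are in red. Fgf21 lies at 0.53, apart from the other ligands, which lie between -0.32 and 0.19, and among the receptors Fgfr4 lies beside Fgfr2 and Fgfr3 on the negative side, with Fgfrl1 and Kl on the positive side.

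Genes that read out FGF receptor signalling showed no call. None of 13 measured members of the relay from receptor to ERK passed and none had groups without overlap, with differences between -0.14 and 0.11. None of 19 ERK feedback and target genes passed, and again no groups were apart. Dusp6, the ERK phosphatase, differed by 0.13 ± 0.15, and Spry4, a feedback inhibitor, by -0.35 ± 0.29. The immediate early gene Egr1 ranged from 7.81 to 10.65 among knockout mice and from 8.09 to 9.44 among wild-type mice, and its difference of 0.59 ± 0.49 had a 95% interval of -0.50 to 1.67.

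Bile acid genes listed for the FGF15 axis lay mostly lower in the knockout. The list is mixed, and whether its genes answer to Klb and Fgfr4 was not tested. Of 11 measured, 8 had differences below 0 and 3 above, where 57.2% of all genes lay above. Their median was -0.17 beside 0.03 over all genes and -0.02 among genes brighter than the median gene. The listed genes were bright on average, so -0.02 is the closer background. The share above 0 was not counted for bright genes alone. The groups were apart for 2, with the knockout lower, beside 5.49% of all genes. The mean level of the 11 was 10.46 to 10.62 in knockout and 10.70 to 10.82 in wild-type arrays. That mean includes Cyp7b1, which had the lowest difference of the list, and its part in the gap was not tested. Cyp7a1 encodes the rate-limiting enzyme of bile acid synthesis and is the gene that FGF15 lowers through Klb and Fgfr4. It stood at 10.78, 11.02, 10.14 and 10.13 in knockout and 10.56, 9.93, 10.46 and 9.89 in wild-type mice. The groups overlapped, with a difference of 0.31 ± 0.22 (limma, adjusted p = 0.512). Cyp8b1, the sterol 12-alpha-hydroxylase gene, stood at -0.37 ± 0.21 and Nr0b2, which encodes the repressor SHP, at -0.44 ± 0.18 (adjusted p = 0.395 and 0.245). Cyp7b1, the oxysterol hydroxylase of the alternative pathway, was the 1 call among 11 measured members: it fell by 1.14 ± 0.24, from 9.89 to 10.53 in wild-type to 8.24 to 9.51 in knockout mice (adjusted p = 0.0491, beside 0.717% of all genes that fell). The call was kept only without knockout mouse 4 when arrays were left out in turn (adjusted p up to 0.116).

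FGF21 is known to blunt growth hormone action in liver, and the genes of that axis were read for this reason. None of 12 passed. Igf1 was level, at 12.05 to 12.21 in knockout and 11.99 to 12.23 in wild-type livers. Igfbp1, an IGF-binding protein gene that FGF21, fasting and ATF4 induce, stood at 11.57, 11.66, 11.57 and 11.49 in knockout and 11.22, 11.41, 11.06 and 10.81 in wild-type mice. All knockout values lay above all wild-type values, with a difference of 0.44 ± 0.12 (limma, adjusted p = 0.0952). Igfals, the acid-labile subunit of the IGF complex, stood at -0.15 ± 0.08 (limma, adjusted p = 0.379) and its groups did not overlap either. Of the 12, the groups were thus apart for 1 with the knockout higher and 1 with it lower. Over all genes these shares were 5.26% and 5.49%, so the counts are near background.

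Liver hormones other than Fgf21 were not of one direction. Of 19 measured, 1 rose, none fell and the other 18 missed the threshold, beside 0.433% of all genes that rose and 0.717% that fell. The call was Gpnmb, which encodes a transmembrane glycoprotein that is shed into the blood and that macrophages also express, and which rose by 1.23 ± 0.12 (limma, adjusted p = 0.00226, and under the threshold with any 1 array left out). Smoc1, a secreted matricellular protein gene, stood at 0.38 ± 0.09 with groups apart (adjusted p = 0.0634). Inhbe, described above, lay on the other side. Among p53 targets, which include Gdf15 in other settings, 16 were measured, none rose and 1 fell, with the same shares of all genes beside them: the death receptor gene Fas fell by 0.41 ± 0.08 (adjusted p = 0.0491), a call kept only without wild-type mouse 1 when arrays were left out (adjusted p up to 0.131). Cdkn1a, the p53-induced cell cycle inhibitor, differed by 0.23 ± 0.27.

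**Figure D5:**
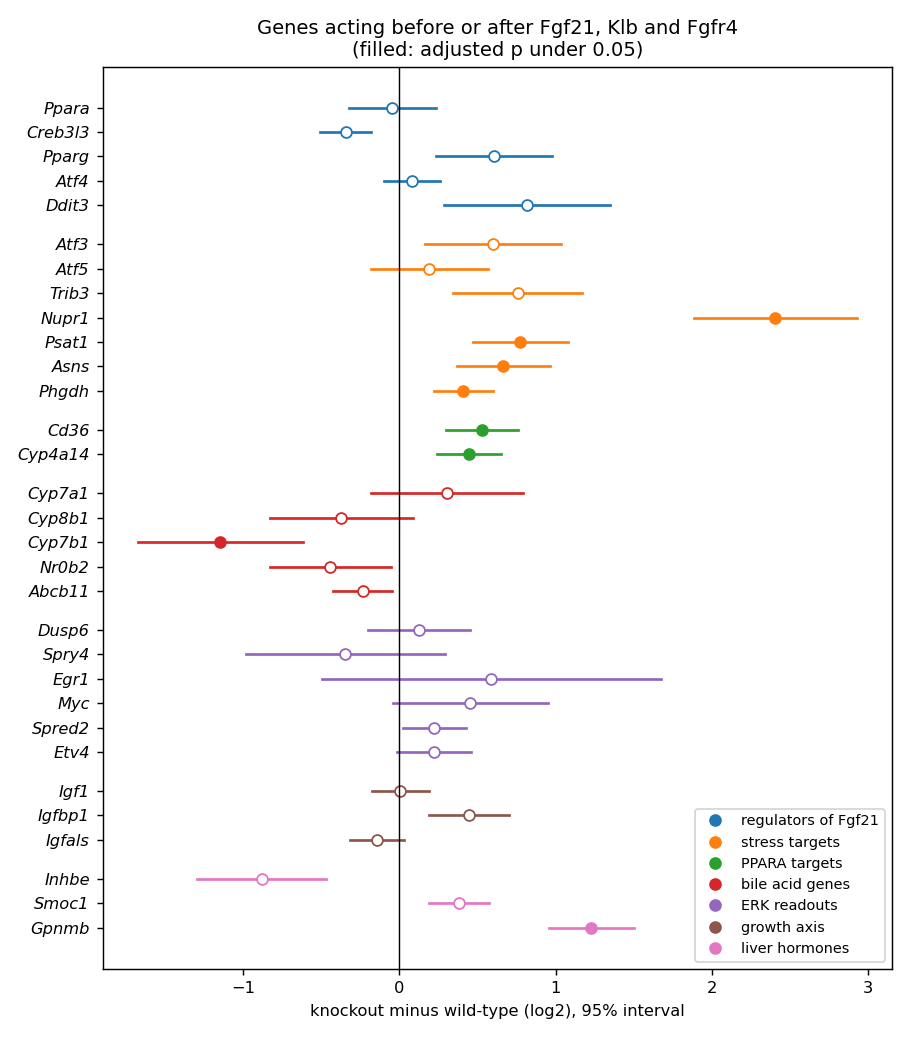
Knockout minus wild-type difference (x axis, log2) with its 95% interval from limma, 4 against 4 arrays. Colours mark regulators of Fgf21, stress targets, PPARA targets, bile acid genes, ERK readouts, growth axis genes and liver hormones. The title places them before or after Fgf21, Klb and Fgfr4, but stress targets, PPARA targets and liver hormones are listed beside these members, and no order of action was tested. Filled points passed an adjusted p under 0.05. Filled points are Nupr1, Psat1, Asns, Phgdh, Cd36, Cyp4a14, Gpnmb on the positive side and Cyp7b1 on the negative side.

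Of 211 measured genes in the 14 lists together, 7 rose and 2 fell, where 0.433% of all genes rose and 0.717% fell, so that the falls are near that background. None of the 9 lists of cell type markers held a gene past the threshold (lowest adjusted p = 0.0921 in limma, for a macrophage marker). The mean level of 8 lymphocyte markers was 6.12 to 6.37 in knockout and 5.92 to 6.10 in wild-type arrays, that of 5 skeletal muscle markers 5.95 to 6.15 and 5.74 to 5.90, and that of 7 endothelial markers 9.50 to 9.54 and 9.29 to 9.48. These 3 did not overlap, like Fgf21, whereas 11 macrophage markers, at 8.88 to 9.37 and 8.77 to 9.24, did. The part of these cells in the Fgf21 and Fgfr4 values was not tested.

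The genes whose values over the 8 arrays were most like each member, among 10521 named genes of at least median brightness, are given as a description. For Fgf21 they were Bend3 (Pearson r = 0.989), Lrrc28 (0.977) and Psat1 (0.976), and after the group means were taken out r was 0.973, 0.951 and 0.926. Lrrc28 rose by 0.47 ± 0.09 (limma, adjusted p = 0.0383, kept only without knockout mouse 2 and otherwise up to 0.108), while Bend3 stood at 0.16 ± 0.07. For Fgfr4 they were Abhd3 (0.990), Mindy1 (0.987) and Cpn2 (0.971), and 0.933, 0.893 and 0.822 after the group means were taken out. All had lower and non-overlapping knockout values, which the choice by likeness to Fgfr4 favours, and none was past the threshold. For Klb they were Mettl27 (0.939), Mtfr1l (0.924) and Rpp21 (0.923), which differed between groups by at most 0.06. The arrays share 1 normalization, and the 3 genes are the top of 10521 compared over 8 arrays.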

How the data were processed

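Liver RNA of 4 knockout and 4 wild-type mice was measured on 1 array each. The authors deposited log2 expression values for 39137 probe sets, which the submitters' processing notes credit to RMA in oligo 1.24. That method subtracts background, equalises the arrays by quantiles and summarises probes, which pulls differences toward 0. The log2 scale was inferred from the method and the range of 1.28 to 13.88. The chip definition and build are not given in the sources used here. Of all probe sets, those with 1 symbol in the platform annotation (23521; 1814 had several and 13802 none) were used, with the set of highest mean for each gene, which left 22180 genes. Each measured member had 1 probe set. The members and lists were chosen with earlier results of these data known.

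Differences are knockout minus wild-type from two-sided limma fits (version 3.58.1, run in R 4.3.3, eBayes moderation, tested on simulated data first), adjusted by Benjamini-Hochberg over all genes at 0.05. Errors are limma SEs for differences and SDs for means. Nothing in the labels names litters or separate cohorts, so p-values measure the spread between these mice. The number of arrays limits the precision. Named genes were the members, Sco1, listed genes past the threshold, up to 3 of smallest p per list, a set fixed by name and the 3 genes most like each member. The clock genes and those named for their motif, Fgf7 included for its groups, were chosen after their values were seen. Promoter sequences are those of RefSeq. Mouse numbers in the titles are shared between groups but were not taken as pairs: deviations of same-numbered mice correlated at 0.27, -0.02, 0.03 and -0.10. Alternatives covered variance model, normalization, dim genes, probe sets, block, weights, the Y-linked level, control classes and each array left out. Tables were handled in Python 3.11.15 (pandas 2.3.3).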

Additional observations from a re-analysis of the deposited data

Results flagged for a closer look

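In groups of 4 arrays, a highest or lowest value was singled out where its gap to the nearest other, divided by the range of the group, was above Dixon's 95% critical value. Of 186 groups of named genes 11 met this, and chance alone gives about 1 in 20. None of them was a group of Fgf21, Klb or Fgfr4. In knockout mouse 1 Igf1 was the highest of its group at 12.21, and Igfals at 9.18 and Sox9, a marker of bile duct cells, at 7.78 were the lowest. In knockout mouse 4 the Y-linked genes Uty at 7.23 and Kdm5d at 7.37 were the lowest, as was the adipocyte marker Plin1 at 5.92. Among wild-type mice the adaptor gene Shc1 was lowest in mouse 1 at 9.94, the adipocyte marker Adipoq in mouse 2 at 4.47, and the ETS factor gene Etv4 in mouse 3 at 5.81. In wild-type mouse 4 the hepatocyte receptor gene Asgr1 at 10.63 and Gpnmb at 5.25 were lowest.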

How the results depend on the processing

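Fgf21 and Fgfr4 kept their direction under the 21 and 22 settings that gave them a value, and Klb was never called. Fgf21 passed under 2, at an unchanged difference of 0.53: a trended robust variance (adjusted p = 0.0456) and the filter that asks for 4 arrays above the table median (adjusted p = 0.0415), which Fgf21 met through its knockout arrays alone, so that this value supports nothing. The filter on genes brighter than the median gene removed Fgf21. Klb changed sign to 0.093 with the Y-linked covariate and 0.13 against Cre-free controls. With 1 array left out, differences ran from 0.39 to 0.61 for Fgf21, from -0.28 to -0.22 for Fgfr4 and from -0.16 to 0.08 for Klb, which was 0.0020 when knockout mouse 3 was dropped, 0.083 for knockout mouse 4 and 0.079 for wild-type mouse 1. With the mouse number as a replicate block, Fgf21 stood at 0.53 ± 0.11 (adjusted p = 0.0664), Fgfr4 at -0.24 ± 0.08 and Klb at -0.03 ± 0.08 (0.16 unblocked), and no call of these 3 changed; 68 genes rose and 142 fell, and of listed genes 1 fell. Only the mice numbered 1 resembled their own number most.

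Over all genes, rises and falls were 159 and 300 with a trended robust variance, 60 and 230 after centring, 123 and 319 among genes brighter than the median gene, 158 and 343 above the table median on 4 arrays, 131 and 245 with array weights, 45 and 106 with the Y-linked covariate, 7 and 9 against Cre-free controls, 4 and 2 against controls with Cre, 58 and 119 with 3 classes, and 28 and 37 without both mice numbered 1, a setting chosen after seeing the data. Leaving out 1 array gave 29 to 65 and 60 to 119. Of the listed genes (7 and 2), 12 rose with the trended robust variance and 12 above the table median on 4 arrays, 4 after centring, 3 with the Y-linked covariate, 3 with 3 classes, 2 without both mice numbered 1, 1 against Cre-free controls and 0 against controls with Cre. Falls among them were 4 under both filters, 1 with the Y-linked covariate and 0 after renewed quantile normalization, with every probe set tested, with 3 classes, against either control class and without both mice numbered 1. Leaving out 1 array gave 2 to 5 rises and 0 to 1 falls. The cause of these shifts was not tested, apart from fewer arrays or genes where a setting has them. The settings planned for Gdf15 were not run. The low signal of Fgf21 limits what its fold can show.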
